A study of Homo sapiens with 65 samples.

Results

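Annexins are calcium-dependent membrane-binding proteins, and several of them work in complexes with small S100 proteins. The 9 genes followed here are the annexins ANXA1, ANXA2, ANXA3, ANXA4, ANXA5 and ANXA6 and the S100 genes S100A10, S100A11 and S100A6, out of 58735 genes counted. They were chosen by name, and the family was selected on measured values: ANXA2 had differed from its controls at days 4.5 and 7.5 in both arms of the study. For the comparisons that led to this choice, values and calls are therefore given as a description, without p-values. Other comparisons that include day 4.5 or day 7.5 share libraries with them, so their p-values are not independent of the choice. Counts come from 3′ RNA-seq of left-ventricular cardioids, heart-like aggregates grown from the human induced pluripotent stem cell line WTC-11, with 8 cardioids pooled for each of 65 libraries in 16 groups. The genotype arm holds 41 libraries. In it, wild-type lines (WT, with 5, 6, 6 and 3 libraries at days 1.5, 2.5, 4.5 and 7.5) were compared with clones labelled HAS2-KO (KO, with 6, 6, 6 and 3 libraries). HAS2 makes hyaluronan, a sugar polymer of the extracellular matrix. The enzyme arm holds 24 libraries of lines with wild-type HAS2, 3 in each group, named TNNI1 (replicate 1), WT (replicate 2) and TNNT2 (replicate 3). They were left untreated (days 2.5, 4.5 and 7.5), or received hyaluronidase, which digests hyaluronan, from day 1.5 (HAse1.5, days 2.5, 4.5 and 7.5) or from day 2.5 (HAse2.5, days 4.5 and 7.5). The enzyme dose is not given in the sources used here. All groups share the differentiation protocol, with mesoderm induction in FGF2-G3, LY294002, Activin A, BMP4 and CHIR99021 until day 1.5, reseeding as aggregates at day 1.5, and then BMP4, FGF2-G3, Insulin, C59 and Retinoic Acid. WT libraries carry 4 line names and KO libraries come from 4 clones (cl4, cl14, cl46 and cl51), which contributed unequally. Among the WT lines, TNT2 and cl43_WT_UT gave libraries at days 1.5, 2.5 and 4.5 only. The others were WT_TU and WT, whose library names end in a replicate number, as in WT_TU_R2. At day 7.5 the WT group held WT_R1, WT_R2 and WT_TU_R2, without TNT2 or cl43_WT_UT. KO libraries at days 1.5, 2.5 and 4.5 were cl4_R1, cl4_R2, cl4_R3, cl14_R1, cl46_R1 and cl51_R1. At day 7.5 they were cl4_R2, cl4_R3 and cl14_R1, without cl46 or cl51. Repeats of a clone share that clone, so the p-values measure the spread between these libraries.

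An annexin has a calcium-binding core that docks on acidic phospholipids and a variable amino-terminal tail that binds partners. ANXA2 pairs through its tail with a dimer of S100A10, which is stabilised by ANXA2 and, unlike other S100 proteins, does not need calcium. The pair links membranes to cortical actin, carries ion channels to the surface and binds plasminogen and its activators. ANXA1 binds S100A11, and S100A6 binds ANXA2, ANXA6 and ANXA11. ANXA5 binds exposed phosphatidylserine, ANXA6 is an abundant annexin of heart muscle, and several annexins gather at torn membranes together with dysferlin.

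Values are on the usual CPM scale, a gene's count divided by the total count of its library. The kit counts transcript ends, so no length correction was needed to compare genes, although priming can differ between them. Library totals ranged from 831062 to 3574843 counts (median 1570954). The 7 cardiomyocyte markers were all above 3 counts in WT at days 4.5 and 7.5. HAS2 counts did not separate the genotypes. They ranged from 149.6 to 482 CPM in WT and from 286 to 485 CPM in KO at day 4.5, and the 2 ranges overlapped on all 4 days. A tag at the transcript end does not check an edit elsewhere in the gene, so the KO labels stand unchecked here. WT and KO libraries carry library numbers in 3 consecutive blocks. In the first and second block every KO library was of clone cl4, so genotype differences within these blocks rest on that clone. At day 7.5 WT came from the first and second block and KO from the second and the third.

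On GRCh38 the 3 S100 genes lie in the S100 cluster of chromosome 1, on the minus strand: S100A10 at chr1:151982915-151994390, S100A11 at chr1:152032506-152047907 and S100A6 at chr1:153534599-153536244. The annexins are dispersed, with ANXA1, ANXA3 and ANXA4 on the plus strand and the others on the minus strand: ANXA1 at chr9:73151757-73170393, ANXA2 at chr15:60347134-60402883, ANXA3 at chr4:78551519-78610451, ANXA4 at chr2:69644425-69827100, ANXA5 at chr4:121667955-121697113 and ANXA6 at chr5:151100712-151157882. ANXA4 overlaps AAK1 on the opposite strand, a gene with a mean of 200.3 CPM, and whether reads were counted by strand is not given in the sources used here, so ANXA4 counts are uncertain. Of the processed copies of members in the annotation, the 3 of ANXA2 and the 8 of S100A11 had 0 counts in all 65 libraries. How reads that match both a gene and a copy were treated is likewise not given in the sources used here.

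RefSeq promoter sequences (GRCh38.p14, 300 bases around each start) were matched for all 9 members. They are shown because ANXA2, S100A10 and S100A11 had the largest falls between days 2.5 and 4.5 in WT, where ANXA5 also fell. The stretches printed are the bases upstream of the start that no annotated exon covers, for ANXA2 (chr15:60398044-60398236, minus strand), S100A11 (chr1:152037036-152037254, minus strand) and ANXA6 (chr5:151157883-151158029, minus strand, the outer of 2 starts). Capitals mark matches to the AP-1 motif (TGANTCA, searched as TGACTCA and TGAGTCA) and to the GC box (GGGCGG), on either strand.
ANXA2: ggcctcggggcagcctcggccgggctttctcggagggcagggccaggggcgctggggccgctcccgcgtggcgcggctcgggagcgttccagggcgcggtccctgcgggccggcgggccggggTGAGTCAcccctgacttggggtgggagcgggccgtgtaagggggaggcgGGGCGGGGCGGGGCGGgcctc
S100A11: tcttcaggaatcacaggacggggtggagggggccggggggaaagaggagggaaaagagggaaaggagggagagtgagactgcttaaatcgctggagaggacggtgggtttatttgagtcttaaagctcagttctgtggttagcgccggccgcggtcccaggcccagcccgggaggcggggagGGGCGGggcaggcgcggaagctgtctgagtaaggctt
ANXA6: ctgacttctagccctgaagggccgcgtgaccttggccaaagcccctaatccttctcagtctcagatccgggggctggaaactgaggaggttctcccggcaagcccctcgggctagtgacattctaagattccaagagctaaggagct

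ANXA2 holds the AP-1 motif 127 bases upstream of its start, and 3 GC boxes that overlap each other by a base begin 78, 73 and 68 bases upstream. S100A11 has a GC box 68 bases upstream. S100A10 has a GC box 167 bases upstream, inside an annotated exon, and its window is not printed for that reason. The outer ANXA6 start has a GC box 12 bases upstream, in an annotated exon outside the printed stretch. GC boxes were also present upstream of S100A6, ANXA4 and ANXA5, and absent from ANXA1 and ANXA3. The GC box is thus not particular to the members that fell between days 2.5 and 4.5. ANXA4 and ANXA6, which hold it too, were not called lower over that step in WT, KO or untreated libraries. ANXA2 was the only member with an AP-1 match, which 4.95% of 35116 promoters of the same length hold, while 45.0% hold a GC box. The TEAD motif CATTCC (14.03% of promoters) and the CArG box (1.29%) matched none of the 9. A match is a stretch of letters and was not tested for binding.

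At day 1.5 in WT the most abundant members were ANXA6, with a mean of 335 ± 146 CPM (SD, n = 5), and S100A11, with 333 ± 161 CPM (SD, n = 5). ANXA2 (143 CPM), ANXA5 (138 CPM) and S100A10 (69.6 CPM) followed, and ANXA1 (23.5 CPM), ANXA3, S100A6 and ANXA4 were scarce. By day 4.5 ANXA6 stood alone at 859 ± 281 CPM (SD, n = 6), with ANXA2 next at 78.1 ± 20.2 CPM (SD, n = 6). The 9 genes together took from 0.0448% of all counts (HAse1.5, day 4.5) to 0.148% (untreated, day 2.5), as group means.

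**Figure D1:**
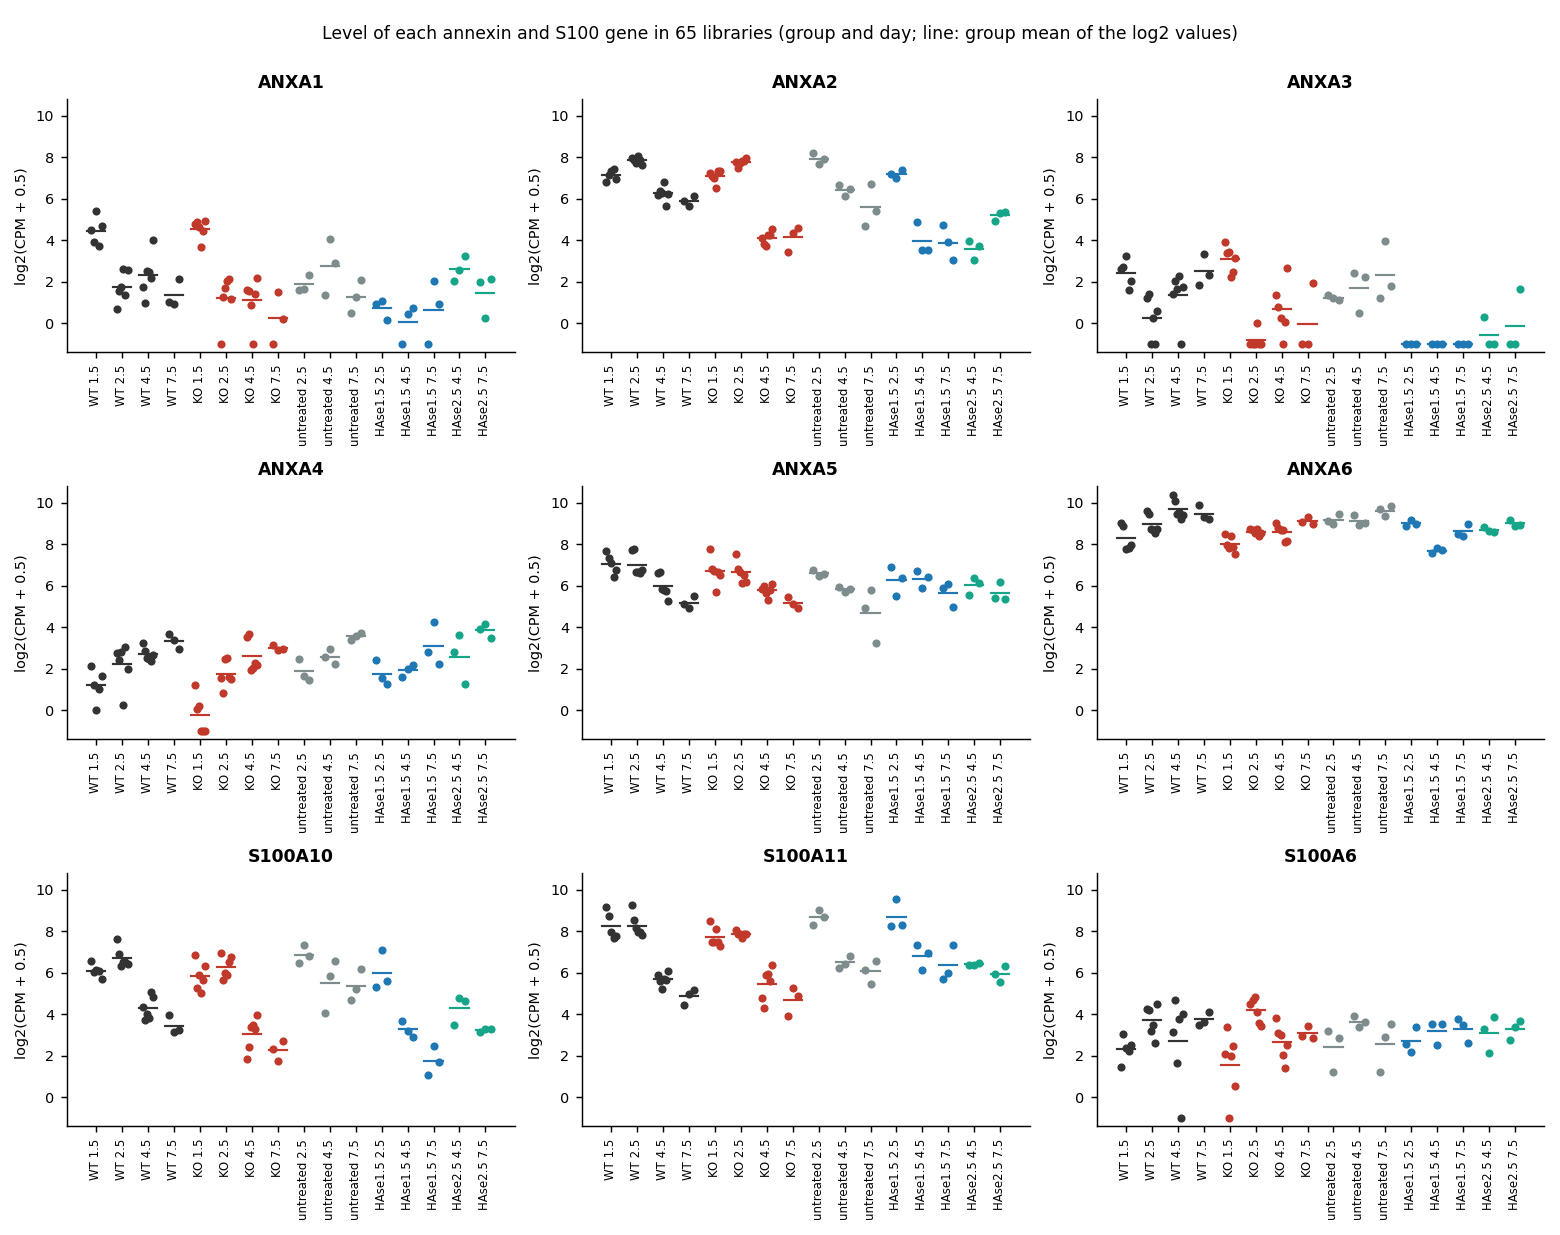
Level of each of the 9 genes in all 65 libraries, as log2(CPM + 0.5) on the vertical axis, by group and day on the horizontal axis; each point is a library and each line the group mean of the log2 values. ANXA2 has its lowest means in KO and HAse1.5 at days 4.5 and 7.5 and in HAse2.5 at day 4.5, ANXA6 is the highest member from day 4.5 on, and ANXA3 has no count in any HAse1.5 library.

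ANXA2, the annexin that pairs with S100A10, was highest at day 2.5 and fell by day 4.5 in both genotypes, and from day 4.5 on all KO libraries held less of it than any WT library. WT libraries held 113, 142, 164, 175 and 122 CPM at day 1.5 and between 199.6 and 262 CPM (median 234, n = 6) at day 2.5. They then held between 50.1 and 112 CPM (median 75.7, n = 6) at day 4.5 and 58.5, 50.2 and 69.2 CPM at day 7.5. All day 4.5 libraries of WT lay below all of its day 2.5 libraries, and 17.7% of all genes tested were without overlap over this step. The log2 fold change of that step was -1.52 ± 0.18 (SE) (edgeR adjusted p = 4.09e-09). The rise before it was small, at 0.498 ± 0.18 (SE) (edgeR adjusted p = 0.0321). That rise was lost in 5 of 16 alternatives, among them leaving out WT_R1 at day 1.5 (0.44) or at day 2.5 (0.47), TNT2 at day 1.5 (0.44), or WT_TU_R2 at day 2.5 (0.47). From day 4.5 to day 7.5 the change in WT was -0.38 (95% interval -0.82 to 0.07, edgeR adjusted p = 0.468).

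Before day 4.5 the ANXA2 ranges of KO and WT overlapped, with the lowest KO library below the lowest WT library on both days. KO ranged between 92.1 and 163 CPM (median 143, n = 6) at day 1.5 and between 178 and 249.7 CPM (median 224, n = 6) at day 2.5. The KO minus WT difference was -0.07 (95% interval -0.43 to 0.29, edgeR adjusted p = 0.961) at day 1.5. At day 2.5 it was -0.13 (95% interval -0.47 to 0.22, edgeR adjusted p = 0.794).

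At day 4.5 the KO libraries lay between 12.8 and 23.2 CPM (median 17.6, n = 6), all below the lowest WT library, where 2.44% of all genes tested were without overlap. By block of library numbers, WT held 71.2 and 83.8 CPM and KO 16.8 CPM in the first, WT 76.8 and 112 and KO 13.4 in the second, and WT 50.1 and 74.5 and KO 12.8, 18.5, 18.8 and 23.2 in the third. The genotypes were thus apart within each block, by clone cl4 alone in the first and second, and libraries of all 4 KO clones lay in the low range. The log2 difference, described and not tested, was -2.25 ± 0.19 (SE), from means of 78.1 and 17.2 CPM. At day 7.5 WT held 58.5, 50.2 and 69.2 CPM and KO 10.4, 20.1 and 23.9 CPM, again without overlap (16.8% of all genes tested), with a log2 difference of -1.74 ± 0.27 (SE). Within the second block, the single block with both genotypes at that day, WT held 50.2 and 69.2 CPM and KO 10.4 CPM.

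Between days 2.5 and 4.5 ANXA2 fell in KO, where the described step was -3.65 ± 0.20 (SE) on the log2 scale. All 6 day 4.5 libraries lay below all 6 day 2.5 libraries (21.9% of all genes tested were without overlap). The low KO libraries of day 4.5 are among those that led to the choice of the family, so no p-value is given for this step. The KO step from day 1.5 to 2.5 was 0.44 ± 0.17 (SE) (edgeR adjusted p = 0.0437), a call lost in 8 of 17 alternatives, 7 of which each leave out 1 KO library (fold changes from 0.35 to 0.45). These were cl4_R2, cl4_R3 and cl14_R1 of day 1.5 and cl4_R3, cl14_R1, cl46_R1 and cl51_R1 of day 2.5. From day 4.5 to day 7.5 KO held its low level, with a change of 0.14 (95% interval -0.35 to 0.62, edgeR adjusted p = 0.878).

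**Figure D2:**
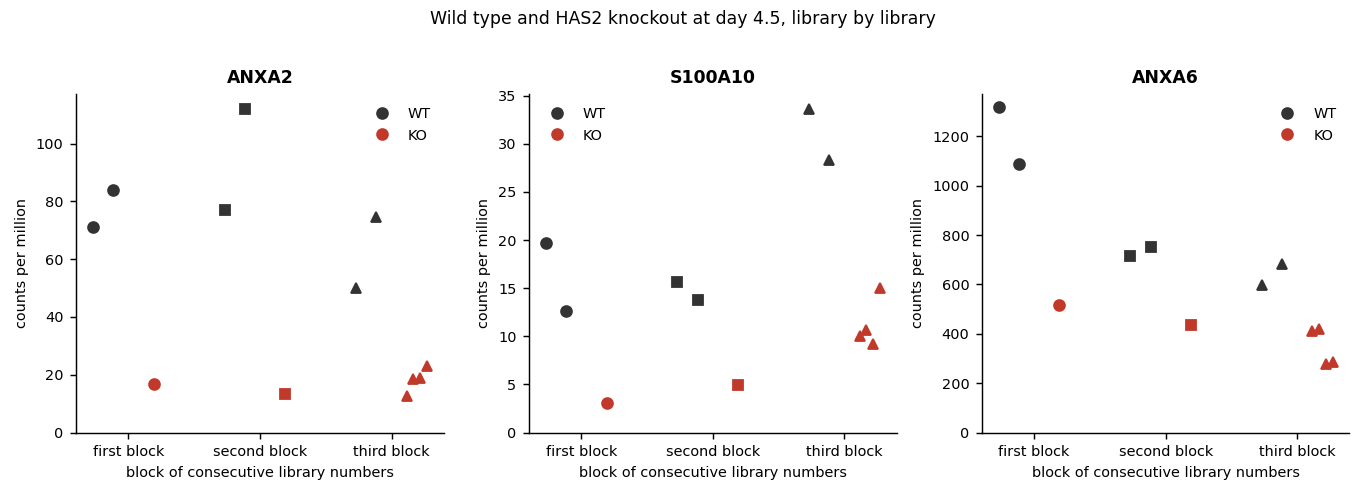
CPM of ANXA2, S100A10 and ANXA6 at day 4.5 in each WT (black) and KO (red) library, by block of consecutive library numbers on the horizontal axis; each symbol is a library. In every block the KO libraries lie below the WT libraries for all 3 genes, although for S100A10 the highest KO library of the third block lies above the lower WT library of the first.

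Markers of other cell states also differed at day 4.5. The summed level of the 4 epithelial markers (EPCAM, CDH1, KRT8 and KRT18) was 1030.2 to 1343 CPM in WT and 304 to 691 CPM in KO at day 4.5. For the 4 smooth muscle markers (ACTA2, TAGLN, CNN1 and MYH11) it was 531 to 1689 CPM in WT and 135 to 621 CPM in KO, with MYH11 at or under 3 counts in every KO library. For the 7 cardiomyocyte markers it was 24943 to 56105 CPM in WT and 15341 to 40261 CPM in KO. The epithelial sums did not overlap, while the smooth muscle and cardiomyocyte sums did. The epithelial genes did not move as 1 list: KRT8 and KRT18, which make up most of the sum, were called lower in KO (-1.34 ± 0.26 (SE) and -1.58 ± 0.20 (SE)). EPCAM, at 27.6 against 7.28 CPM (1.85 ± 0.34 (SE)), and CDH1, at 8.02 against 1.04 CPM (2.64 ± 0.63 (SE)), were called higher. Of the smooth muscle markers 3 of 4 were called lower, and of the cardiomyocyte markers 3 of 7, with 0 higher in either list. Of the 6 cardiac progenitor markers (NKX2-5, HAND1, HAND2, TBX5, ISL1 and GATA4) 2 were called higher and 1 lower. Of all genes, 2.6% were called lower and 1.14% higher. Fewer cells of a type and less RNA per cell cannot be told apart in these pooled aggregates, and the part of these markers in the ANXA2 result was not tested.

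With hyaluronidase from day 1.5, ANXA2 was also lower at days 4.5 and 7.5, by its group means. At day 2.5, untreated libraries held 299, 201 and 245 CPM and HAse1.5 libraries 146, 127 and 168 CPM, in the order TNNI1, WT and TNNT2. The treated libraries were all lower, where 13.5% of all genes tested were without overlap. The log2 difference of -0.79 ± 0.37 (SE) did not pass the test (edgeR adjusted p = 0.504, range over its 11 alternatives 0.0942 to 0.796). At day 4.5, untreated libraries held 101, 70.2 and 86.9 CPM and HAse1.5 libraries 28.5, 11.2 and 11.1 CPM. ANXA2 was lower in each of the 3 lines, and the described log2 difference was -2.41 ± 0.43 (SE). At day 7.5, untreated libraries held 25.0, 105 and 41.5 CPM and HAse1.5 libraries 26.1, 14.4 and 7.67 CPM. Lines WT and TNNT2 were lower with the enzyme, and line TNNI1 was not. The described log2 difference was -1.97 ± 0.44 (SE), and it rests on few libraries. Its call was lost with only the 2 groups in the fit (-1.97), without the untreated replicate 2 (-1.22), without HAse1.5 replicate 2 (-1.90) or without HAse1.5 replicate 3 (-1.64). Mitochondrial genes took 0.902% to 2.39% of counts in the untreated libraries of day 7.5, 0.426% to 1.11% in HAse1.5 and 0.629% to 0.832% in HAse2.5 libraries, and the part of this in the differences at day 7.5 was not tested.

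Hyaluronidase from day 2.5 gave ANXA2 values of 15.1, 7.81 and 12.8 CPM at day 4.5, below all untreated libraries, where 16.5% of all genes tested were without overlap. The described log2 difference was -2.87 ± 0.45 (SE). The call was lost without HAse2.5 replicate 2 (-2.65) or replicate 3 (-2.91). At day 7.5 the HAse2.5 libraries held 30.5, 38.9 and 40.6 CPM, inside the untreated range. The described log2 difference was -0.71 ± 0.40 (SE) and was not called, and without the untreated replicate 2 it was 0.05. The 2 enzyme schedules share the untreated libraries, so their differences from untreated are not independent. Compared directly, HAse1.5 minus HAse2.5 was 0.46 at day 4.5 (95% interval -0.54 to 1.47, edgeR adjusted p = 0.913) and -1.26 at day 7.5 (95% interval -2.19 to -0.34, edgeR adjusted p = 0.646). At day 7.5 all 3 HAse1.5 libraries were below all 3 HAse2.5 libraries (12.01% of all genes tested were without overlap), although the difference did not pass the test.

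In the untreated libraries of the enzyme arm, ANXA2 fell between days 2.5 and 4.5, where the step was -1.65 ± 0.38 (SE) on the log2 scale (edgeR adjusted p = 0.00287). From day 4.5 to 7.5 the change was -0.47 (95% interval -1.27 to 0.33, edgeR adjusted p = 0.475). Without replicate 2 of day 7.5, the library at 105 CPM, it became -1.23 (edgeR adjusted p = 0.0298, the lowest of its 11 alternatives, which reach 0.881). Marker sums differed here too. The epithelial sum at day 4.5 was 937 to 1035 CPM in untreated, 249 to 536 CPM in HAse1.5 and 262 to 329.9 CPM in HAse2.5 libraries. The cardiomyocyte sum was 22774 to 44022 CPM, 4973 to 18556 CPM and 16864 to 30437 CPM in the same order, and the smooth muscle sum was 553 to 1140.4 CPM, 37.2 to 108 CPM and 389.5 to 555 CPM. MYH11 was at or under 3 counts in every untreated and HAse1.5 library of that day, and CDH1 in every untreated and HAse2.5 library. Other sums at day 4.5 were higher in HAse1.5. The cardiac progenitor sum was 1396 to 1501 CPM in untreated, 1882 to 2811 CPM in HAse1.5 and 1371 to 1695 CPM in HAse2.5 libraries. In HAse1.5, 2 of its 6 genes were called higher and 1 lower. The endothelial sum was 126 to 165 CPM, 177 to 188 CPM and 201 to 225 CPM in the same order, with 0 genes called. At day 7.5 the epithelial sum was 285 to 585 CPM, 224 to 252 CPM and 326 to 394 CPM. The part of these markers in the result was not tested.

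Ordered by mean, the 16 groups fell into tiers for ANXA2. Untreated, WT and KO at day 2.5 were the highest, with means of 249, 232 and 219 CPM and overlapping libraries. HAse1.5 at day 2.5 (147 CPM) and WT and KO at day 1.5 (143 and 138 CPM) came next and overlapped each other, and the lowest KO library of day 1.5 (92.1 CPM) lay below the highest WT library of day 4.5 (112 CPM). Untreated and WT at days 4.5 and 7.5 lay between 57.1 and 86.0 CPM, also overlapping, and HAse2.5 at day 7.5 (36.7 CPM) overlapped the untreated libraries of its day. The lowest tier, from 11.9 to 18.2 CPM, held KO and HAse1.5 at days 4.5 and 7.5 and HAse2.5 at day 4.5, and these 5 groups could not be ordered beyond their spread. By library this tier overlapped the one above. The lowest untreated library of day 7.5 (25.0 CPM) lay below the highest HAse1.5 libraries of days 4.5 and 7.5 (28.5 and 26.1 CPM).

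S100A10, the partner that ANXA2 stabilises, fell between days 2.5 and 4.5 in both genotypes and was lower still in KO and HAse1.5 libraries. WT held 95.4, 65.3, 69.4, 67.1 and 50.6 CPM at day 1.5 and between 79.9 and 196 CPM (median 89.9, n = 6) at day 2.5. At day 4.5 WT held between 12.6 and 33.6 CPM (median 17.7, n = 6) and at day 7.5 14.9, 8.37 and 9.05 CPM. The log2 fold change from day 2.5 to 4.5 was -2.40 ± 0.32 (SE) in WT (edgeR adjusted p = 7.63e-08) and -3.20 ± 0.34 (SE) in KO (edgeR adjusted p = 9.31e-10), without overlap of libraries in either genotype. Of all genes tested, 17.7% in WT and 21.9% in KO were also without overlap. In untreated libraries the same step was -1.23 ± 0.50 (SE) and did not pass the test (edgeR adjusted p = 0.0772). With the line as a block it was called.

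At day 4.5 the KO libraries held S100A10 between 3.05 and 15.1 CPM (median 9.62, n = 6), a range that overlapped that of WT. Within blocks the genotypes were apart: WT held 19.7 and 12.6 CPM and KO 3.05 CPM in the first, WT 15.6 and 13.8 and KO 4.89 in the second, and WT 33.6 and 28.3 and KO 10.1, 10.7, 9.15 and 15.1 in the third. The described log2 difference was -1.30 ± 0.35 (SE). Its call was lost in 6 of 18 alternatives: with only the 2 groups in the fit (-1.27), and without WT_R1 (-1.29), TNT2 (-1.19), cl4_R1 (-1.12), cl4_R2 (-1.18) or cl46_R1 (-1.30). At day 7.5 WT held 14.9, 8.37 and 9.05 CPM and KO 4.56, 2.88 and 5.97 CPM, without overlap (16.8% of all genes tested), but the described log2 difference of -1.33 ± 0.56 (SE) was not called. The KO libraries of that day held 5 to 9 counts of S100A10 each. At days 1.5 and 2.5 the KO minus WT differences were -0.18 (95% interval -0.80 to 0.45, edgeR adjusted p = 0.944) and -0.497 (95% interval -1.09 to 0.10, edgeR adjusted p = 0.56).

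In the enzyme arm S100A10 varied between lines. Untreated libraries of TNNI1, WT and TNNT2 held 16.4, 57.7 and 93.2 CPM at day 4.5, and HAse1.5 libraries 12.4, 8.64 and 6.98 CPM. Each line was lower with the enzyme, and the described log2 difference was -2.63 ± 0.59 (SE). The call was lost with only the 2 groups in the fit (-2.63), without untreated replicate 3 (-2.03) or without HAse1.5 replicate 3 (-2.43). At day 7.5 untreated libraries held 25.0, 36.4 and 71.2 CPM and HAse1.5 libraries 1.63, 5.03 and 2.79 CPM. Here all 3 lines were lower, the described log2 difference was -3.88 ± 0.70 (SE), and the call was kept in all 11 alternatives. The HAse1.5 libraries of that day held only 2 to 7 counts of S100A10 each, so the size of this difference is uncertain. HAse2.5 libraries held 10.78, 26.5 and 24.4 CPM at day 4.5, overlapping untreated, and 8.30, 9.39 and 9.17 CPM at day 7.5, below untreated (16.9% of all genes tested were without overlap). The described log2 differences were -1.46 ± 0.54 (SE) and -2.37 ± 0.59 (SE), and neither was called, but with the line as a block the difference at day 7.5 was called.

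The ratio of S100A10 to ANXA2 counts shows how far the pair moved in step, since depth cancels within a library. In WT its mean log2 value was -1.05 ± 0.46 (SD, n = 5) at day 1.5, -1.15 ± 0.43 (SD, n = 6) at day 2.5, -1.98 ± 0.90 (SD, n = 6) at day 4.5 and -2.498 ± 0.49 (SD, n = 3) at day 7.5. KO libraries had -1.27, -1.49, -1.12 ± 0.76 (SD, n = 6) and -2.0 on the same days. S100A10 was thus scarcer than ANXA2 in every WT and KO library, and the WT and KO ranges at day 4.5 (-3.02 to -0.58 and -2.46 to -0.34) overlapped. Untreated libraries had -1.08 ± 0.72 (SD, n = 3), -0.94 ± 1.48 (SD, n = 3) and -0.25 ± 1.17 (SD, n = 3) at days 2.5, 4.5 and 7.5, and HAse1.5 libraries -1.20 ± 1.12 (SD, n = 3), -0.75 ± 0.42 (SD, n = 3) and -2.32 ± 1.45 (SD, n = 3). HAse2.5 libraries at day 4.5 were the single group with a mean above 0, at 0.74 ± 1.14 (SD, n = 3). By day 7.5 they were at -2.02 ± 0.14 (SD, n = 3).

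**Figure D3:**
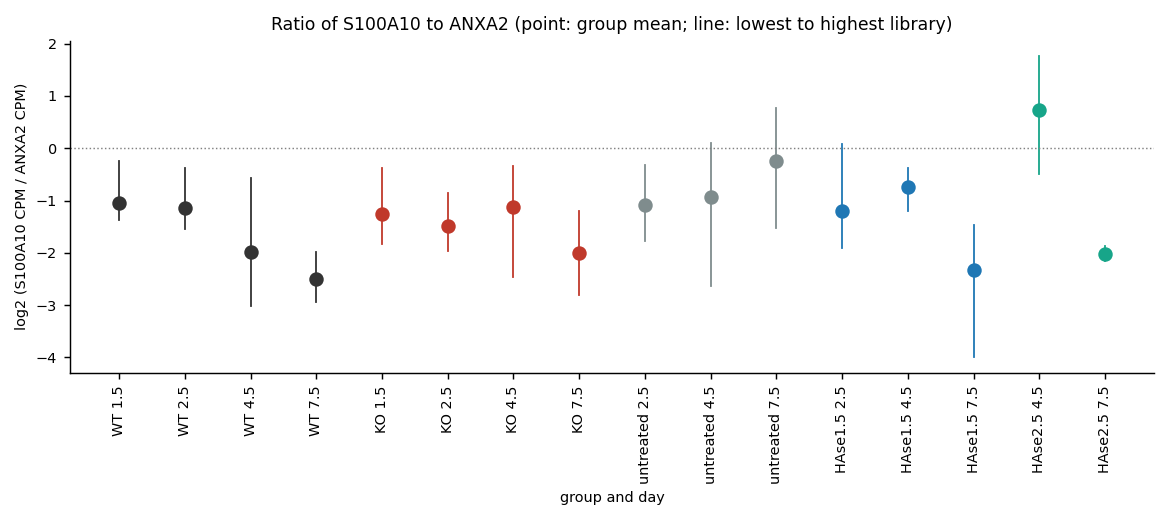
log2 ratio of S100A10 to ANXA2 CPM on the vertical axis in each group and day on the horizontal axis; points are group means and lines span the lowest to the highest library. A value below 0 means fewer S100A10 than ANXA2 counts, as in all groups by their means except HAse2.5 at day 4.5.

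ANXA6, the annexin of heart muscle, was the most abundant member at day 4.5 in every group. In WT it held 520.3, 466.5, 215, 229 and 246 CPM at day 1.5, between 373 and 777 CPM (median 431, n = 6) at day 2.5, between 599 and 1319 CPM (median 733, n = 6) at day 4.5 and 935, 643 and 597 CPM at day 7.5. It rose between days 2.5 and 4.5 by 0.77 ± 0.25 (SE) in log2 units (edgeR adjusted p = 0.0135), a call lost without the library WT_R1 of day 4.5 (0.59). In KO the same step was 0.03 (95% interval -0.47 to 0.54, edgeR adjusted p = 0.946), and in untreated libraries it was -0.18 (95% interval -0.59 to 0.22, edgeR adjusted p = 0.54). The differences between these steps were not tested. ANXA6 was highest in the first block, whose WT libraries held 1319 and 1089.6 CPM at day 4.5.

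At day 4.5 the KO libraries held ANXA6 between 279 and 517 CPM (median 414, n = 6), all below WT, where 2.44% of all genes tested were without overlap. The described log2 difference was -1.21 ± 0.25 (SE). Within blocks, WT against KO was 1319 and 1089.6 against 517 CPM, 715 and 751 against 437 CPM, and 599 and 683 against 409.7, 419, 279 and 285 CPM. The genotypes were apart in each. At day 7.5 WT held 935, 643 and 597 CPM and KO 537, 628 and 502 CPM, which overlapped, and the described log2 difference of -0.42 ± 0.35 (SE) was not called. At days 1.5 and 2.5 the differences were -0.38 (95% interval -0.91 to 0.15, edgeR adjusted p = 0.938) and -0.47 (95% interval -0.97 to 0.04, edgeR adjusted p = 0.51).

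The schedules of hyaluronidase differed for ANXA6 at day 4.5. On that day untreated libraries held 689, 492 and 515 CPM, HAse1.5 libraries 193, 222 and 208 CPM and HAse2.5 libraries 456, 399 and 385 CPM, with no overlap between the 3 groups. Of all genes tested, 21.6% were without overlap for HAse1.5 against untreated, 16.5% for HAse2.5 against untreated and 16.3% between the schedules. The described log2 differences from untreated were -1.53 ± 0.20 (SE) for HAse1.5, which was called, and -0.49 ± 0.20 (SE) for HAse2.5, which was not. The direct difference, HAse1.5 minus HAse2.5, was -1.04 ± 0.20 (SE) (edgeR adjusted p = 0.0184), lower in 3 of 3 lines. That call was lost without HAse1.5 replicate 1 (-0.99) or 3 (-1.04), or HAse2.5 replicate 1 (-0.97) or 2 (-1.07), with edgeR adjusted p from 0.0556 to 0.194, where its 11 alternatives start at 3.16e-05. At day 7.5 untreated libraries held 824, 653 and 916 CPM, HAse1.5 libraries 364, 338 and 499 CPM and HAse2.5 libraries 575, 478 and 489 CPM. Both treated groups lay below untreated, where 17.7% and 16.9% of all genes tested were without overlap. The described log2 differences were -1.11 ± 0.20 (SE) (called) and -0.69 ± 0.20 (SE) (not called). With only the 2 groups in the fit the first was no longer called (-1.12), the 1 of its 11 alternatives in which the call was lost. The direct difference between the schedules did not pass the test at this day (-0.42, 95% interval -0.82 to -0.01, edgeR adjusted p = 0.858). The cardiomyocyte marker sum, given above for day 4.5, was 58615 to 67777 CPM in untreated, 29123 to 32644 CPM in HAse1.5 and 36477 to 59342 CPM in HAse2.5 libraries at day 7.5. Its part in the ANXA6 values was not tested, nor was that of the mitochondrial share given above for that day.

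S100A11, which binds ANXA1, fell over the same step as S100A10. Against controls it was not called in KO or treated libraries on any day, except in KO at day 2.5 with a block on the number in the replicate name. WT held between 223 and 605 CPM (median 267, n = 6) at day 2.5 and between 36.5 and 67.6 CPM (median 50.4, n = 6) at day 4.5. The step was -2.63 ± 0.31 (SE) in log2 units in WT (edgeR adjusted p = 8.28e-09), -2.24 ± 0.31 (SE) in KO (edgeR adjusted p = 2.39e-07) and -2.32 ± 0.43 (SE) in untreated libraries (edgeR adjusted p = 0.000516). All 3 steps were without overlap, as were 17.7%, 21.9% and 42.6% of all genes tested, and were called in every alternative run. At day 4.5 KO libraries held between 18.9 and 81.1 CPM (median 53.5, n = 6), and the described difference from WT was -0.18 ± 0.30 (SE). With the enzyme, S100A11 held 163, 70.0 and 122 CPM in HAse1.5 and 83.4, 82.7 and 87.8 CPM in HAse2.5 libraries against 75.1, 86.1 and 111 CPM in untreated ones. The described differences were 0.30 ± 0.42 (SE) and -0.13 ± 0.43 (SE). None was called.

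ANXA5, the phosphatidylserine-binding annexin, fell by smaller amounts. In WT it held between 96.4 and 217 CPM (median 104, n = 6) at day 2.5, between 38.1 and 99.3 CPM (median 56.2, n = 6) at day 4.5 and 33.9, 30.0 and 44.6 CPM at day 7.5. The step from day 2.5 to 4.5 was -0.99 ± 0.29 (SE) in log2 units in WT (edgeR adjusted p = 0.00602) and -0.89 ± 0.29 (SE) in KO (edgeR adjusted p = 0.0178). The call in KO was lost without cl4_R1 of day 2.5 (-0.70), a library with 184 CPM. Its 2 highest WT libraries at days 2.5 and 4.5 were those of the first block. At day 4.5 the described difference between KO and WT was -0.37 ± 0.29 (SE), and those of HAse1.5 and HAse2.5 from untreated were 0.47 ± 0.40 (SE) and 0.19 ± 0.40 (SE). None was called, and the enzyme differences were above 0.

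The other members were scarce. ANXA1, the annexin that binds S100A11, fell between days 1.5 and 2.5, from 22.4, 14.7, 42.3, 12.8 and 25.3 CPM to a range between 1.10 and 5.58 CPM (median 2.66, n = 6) in WT. The step was -3.07 ± 0.48 (SE) in log2 units in WT (edgeR adjusted p = 3.31e-06) and -3.46 ± 0.50 (SE) in KO (edgeR adjusted p = 6.05e-07), without overlap in either. Of all genes tested, 16.2% in WT and 18.02% in KO were without overlap over this step. At day 4.5 untreated libraries held 2.05, 15.99 and 6.95 CPM and HAse1.5 libraries 0, 0.864 and 1.16 CPM. The HAse1.5 libraries had at most 2 counts each, so the described difference is given as a bound, at least 4.03-fold lower against a floor of 3 counts per library. The bound rests on untreated replicate 2, without which it is at least 2.18-fold. The call was lost in 5 of 10 alternatives, each of which leaves out 1 library: untreated replicate 2 or 3, or HAse1.5 replicate 1, 2 or 3. In the fit on only these 2 groups ANXA1 did not pass the filter on low counts. KO and WT at day 4.5 gave a described log2 difference of -1.396 ± 0.53 (SE) and no call.

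ANXA3 had few counts throughout. WT held 5.59, 6.02, 8.88, 2.56 and 3.62 CPM at day 1.5 and between 0 and 2.16 CPM (median 0.841, n = 6) at day 2.5, a step of -2.45 ± 0.68 (SE) in log2 units (edgeR adjusted p = 0.00489). KO held between 4.12 and 14.5 CPM (median 9.18, n = 6) at day 1.5, and at day 2.5 a single count in 1 of 6 libraries. ANXA3 was thus at least 4.20-fold lower in KO at day 2.5 than at day 1.5, against the floor of 3 counts per library (edgeR adjusted p = 3.17e-06). The later step in KO, from day 2.5 to day 4.5, was called higher (edgeR adjusted p = 0.0128), but the day 4.5 mean of 1.71 CPM is within the floor and no fold is given. That call was lost without cl51_R1 (edgeR adjusted p = 0.0834, the highest of its 16 alternatives, which start at 0.00451). In the enzyme arm ANXA3 did not pass the filter on low counts. It had 0 counts in all 9 HAse1.5 libraries, at most 4 counts in any HAse2.5 library, and 1.78, 15.3 and 2.97 CPM in the untreated libraries of day 7.5. For HAse1.5 at day 7.5 this is at least 3.00-fold lower, and 1 untreated library, replicate 2, holds most of those counts, without which the bound is 1.06-fold. Without the filter on low counts edgeR called ANXA3 lower in this comparison.

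ANXA4 was scarce on all days. Its WT means were 2.07, 4.90, 6.08 and 9.73 CPM at days 1.5, 2.5, 4.5 and 7.5. The single step called was that from day 1.5 to 2.5 in KO. It went from between 0 and 1.85 CPM (median 0.277, n = 6) to between 1.27 and 5.22 CPM (median 2.48, n = 6), at 2.07 ± 0.62 (SE) in log2 units (edgeR adjusted p = 0.00893). S100A6, a partner of several annexins, held 2.24, 7.82, 4.70, 4.10 and 5.17 CPM in WT at day 1.5 and between 5.61 and 22.1 CPM (median 14.3, n = 6) at day 2.5. In KO it rose over this step by 2.06 ± 0.56 (SE) in log2 units (edgeR adjusted p = 0.00402) and fell from day 2.5 to 4.5, with -1.45 ± 0.54 (SE) (edgeR adjusted p = 0.0373). The fall was lost in 8 of 17 alternatives, 7 of which leave out 1 KO library: cl4_R1, cl4_R2 or cl4_R3 of day 2.5, or cl4_R3, cl14_R1, cl46_R1 or cl51_R1 of day 4.5 (fold changes from -1.47 to -1.26). WT libraries of S100A6 at day 4.5 spread from 0 to 24.8 CPM. Against their controls, neither KO nor enzyme-treated libraries gave an edgeR call for ANXA3, ANXA4, ANXA5, S100A11 or S100A6 on any day in the fit to all groups of an arm. Of the alternatives, the fit without a filter called ANXA3 in HAse1.5 at day 7.5, and the block on the number in the replicate name called S100A11 in KO at day 2.5.

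Counted over the family, the described comparisons gave these calls at an adjusted p under 0.05, with the share of all tested genes called in the same direction beside each. For KO against WT at day 4.5, 3 of 9 members were called lower (ANXA2, ANXA6 and S100A10) and 0 higher, where 2.6% of all genes were lower and 1.14% higher. At day 7.5, 1 of 9 (ANXA2) was lower and 0 higher, where 0.290% of all genes were lower and 0.0580% higher. For HAse1.5 against untreated at day 4.5, 4 of 8 tested members were lower (ANXA1, ANXA2, ANXA6 and S100A10) and 0 higher, where 2.41% were lower and 1.07% higher. At day 7.5, 3 of 8 were lower (ANXA2, ANXA6 and S100A10) and 0 higher, where 1.92% were lower and 1.41% higher. For HAse2.5 against untreated, 1 of 8 (ANXA2) was lower at day 4.5 and 0 higher, where 0.149% were lower and 0.0706% higher. At day 7.5, 0 of 8 were called by edgeR in either direction, where 0.314% were lower and 0.345% higher. ANXA6 and S100A10 had unadjusted p under 0.05 there, and both were called by DESeq2. With the line as a block 1 was called, S100A10. Nothing is read from these counts, since the family was chosen for them. The median log2 difference over the tested members was -0.77 for KO against WT at day 4.5 and -1.16 for HAse1.5 against untreated at day 4.5, beside -0.03 and 0.02 over all tested genes. The second is over 8 members and stays the same with ANXA1, whose fitted value rests on the floor, placed at its bound.

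**Figure D4:**
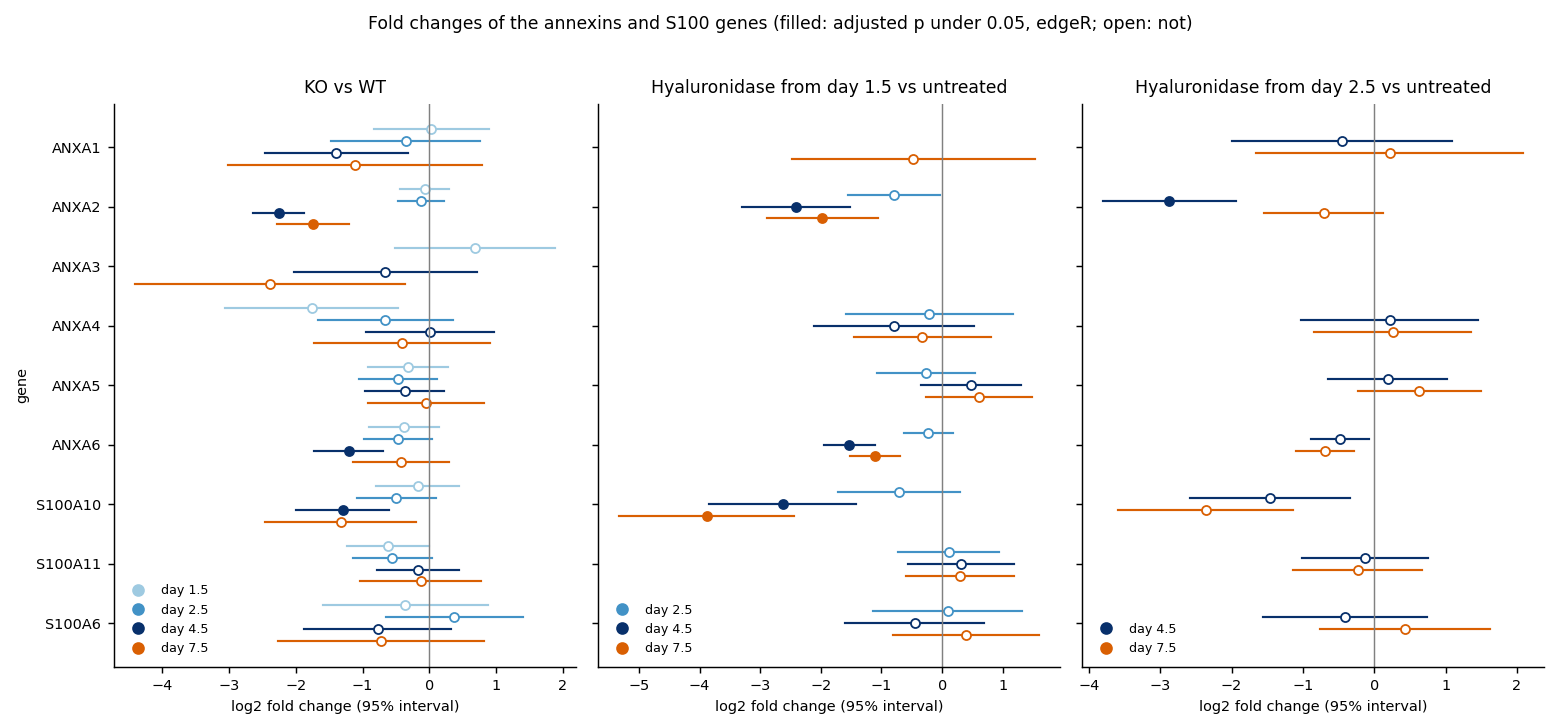
log2 fold change (horizontal axis) of each gene (vertical axis) with its 95% interval, for KO against WT and for each enzyme schedule against untreated, coloured by day; filled points have an adjusted p under 0.05 in edgeR. ANXA2 is filled at days 4.5 and 7.5 for KO and HAse1.5, S100A11 and ANXA5 are open everywhere, and points against a group at or under 3 counts in every library are left out.

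The comparisons not used in the choice gave few calls between conditions. For KO against WT, 0 of 9 members were called by edgeR at day 1.5, where 0.00% of all genes were lower and 0.00% higher. At day 2.5, 0 of 9 were called, where 0.5% were lower and 0.493% higher. At an unadjusted p under 0.05 there were 2 members (S100A11 and ANXA4) at day 1.5 and 1 (ANXA3) at day 2.5, and DESeq2 called 0 on both days. For HAse1.5 against untreated at day 2.5, 0 of 8 were called by edgeR, where 0.894% were lower and 0.243% higher, with 1 member (ANXA2) at an unadjusted p under 0.05 and 0 by DESeq2. Between the 2 schedules, 1 of 8 (ANXA6) was lower in HAse1.5 at day 4.5, where 0.275% were lower and 0.0863% higher. At day 7.5, 0 of 8 were called by edgeR, where 0.00% were lower and 0.00784% higher, with 2 (ANXA2 and ANXA6) at an unadjusted p under 0.05 and 0 by DESeq2.

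Over time, calls among members are given beside the shares over all genes, which were high for both steps before day 4.5, so the counts are not read as particular to the members. From day 1.5 to 2.5, WT had 1 of 9 called higher (ANXA2) and 2 lower (ANXA1 and ANXA3), where 15.0% of all genes were higher and 15.1% lower. With the replicate name as a block 5 were called, with ANXA6 and S100A6 added. KO had 3 higher (ANXA2, ANXA4 and S100A6) and 2 lower (ANXA1 and ANXA3), where 17.2% were higher and 16.1% lower. With the block 6 were called, with ANXA6 added. From day 2.5 to 4.5, WT had 1 higher (ANXA6) and 4 lower (ANXA2, ANXA5, S100A10 and S100A11), where 18.6% were higher and 15.9% lower. KO had 1 higher (ANXA3) and 5 lower (ANXA2, ANXA5, S100A10, S100A11 and S100A6), where 15.6% were higher and 14.9% lower. Untreated libraries had 2 of 8 lower (ANXA2 and S100A11) and 0 higher, where 12% were higher and 11% lower. ANXA2 and S100A11 were therefore called lower in all 3 of these series.

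From day 4.5 to 7.5 edgeR called no member in WT, KO or untreated libraries. In WT 1.25% of all genes were higher and 1.44% lower, 3 members (S100A11, ANXA5 and S100A10) had an unadjusted p under 0.05, DESeq2 called 0, and the block called 1, ANXA5. In KO 3.21% were higher and 3.02% lower, 0 members had an unadjusted p under 0.05, DESeq2 called 0, and the block called 1, ANXA6. In untreated libraries 3.45% were higher and 2.92% lower, and 1 member (ANXA6) had an unadjusted p under 0.05. DESeq2, the line block, the scaling by RLE size factors and the fit without a filter each called ANXA6 alone, whose step was 0.62 ± 0.20 (SE) (edgeR adjusted p = 0.0582).

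Relatives and partners were read from lists, and the shares over all genes for the same comparisons are those given above. Of 7 other annexins, 2 (ANXA7 and ANXA11) passed the filter. ANXA11, a partner of S100A6, was called lower in KO at day 4.5, with 57.0 against 96.8 CPM and a described log2 difference of -0.85 ± 0.15 (SE). It was also called lower in HAse1.5 at day 7.5, with 63.9 against 107 CPM and -0.86 ± 0.24 (SE). In the other described comparisons, and in WT from day 2.5 to 4.5, edgeR called 0 of the 2, and ANXA11 alone had an unadjusted p under 0.05, in HAse1.5 at day 4.5 and in the WT step. Of 17 other S100 genes, 4 passed the filter, and edgeR called 0 of them in KO or enzyme-treated libraries against controls on any day, with 0 to 3 at an unadjusted p under 0.05. From day 2.5 to 4.5 in WT 2 of the 4 rose and 0 fell, where 18.6% of all genes were higher and 15.9% lower. These were S100Z, at or under 3 counts in every library at day 2.5, to a mean of 20.6 CPM (edgeR adjusted p = 9.98e-08), and S100A16 from 8.23 to 18.9 CPM (1.22 ± 0.36 (SE) in log2 units, edgeR adjusted p = 0.00699). S100 genes thus moved both ways over the step at which S100A10 and S100A11 fell.

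Among 21 binding partners and genes of the plasminogen system, 16 were tested in the genotype arm and 14 in the enzyme arm. In WT from day 2.5 to 4.5, 4 of 16 rose and 4 fell, where 18.6% of all genes were higher and 15.9% lower. These counts are not read as particular to the partners. PLAT, the tissue plasminogen activator that the ANXA2 pair can bind, rose from 2.57 to 41.4 CPM (4.06 ± 0.67 (SE) in log2 units, edgeR adjusted p = 6.12e-06). DYSF, dysferlin, a membrane repair protein of muscle, rose from 14.5 to 165 CPM (3.51 ± 0.43 (SE), edgeR adjusted p = 1.91e-08). AHNAK, a large scaffold bound by S100A10, fell from 329.9 to 52.7 CPM (-2.61 ± 0.24 (SE), edgeR adjusted p = 2.54e-11). The scaffold and S100A10 were thus both lower at day 4.5, and the repair protein was higher.

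DYSF was also the partner called in most described comparisons. In KO at day 4.5 it was the 1 partner called lower of 16, where 2.6% of all genes were lower. DYSF held 29.5 against 165 CPM, with a described log2 difference of -2.57 ± 0.41 (SE). In HAse1.5 at day 4.5 it was the 1 called lower of 14, with 20.8 against 75.9 CPM (-1.98 ± 0.42 (SE)), where 2.41% of all genes were lower. At day 7.5, 2 of 14 were called lower, where 1.92% of all genes were lower. These were DYSF, with 40.8 against 164 CPM (-2.11 ± 0.40 (SE)), and DLC1, a binding partner of S100A10, with 63.6 against 161 CPM (-1.45 ± 0.39 (SE)). No partner was called higher in these comparisons, and edgeR called 0 in KO at day 7.5 and in HAse2.5 at days 4.5 and 7.5, with 2, 1 and 5 at an unadjusted p under 0.05. At day 2.5 in HAse1.5, 1 of 14 was lower, where 0.894% of all genes were lower. This was MYOF, a relative of dysferlin named after its value was seen (-1.79 ± 0.44 (SE), edgeR adjusted p = 0.0421).

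Across the 16 group means, on the scale log2(CPM + 0.5), the members most alike were ANXA2 and S100A10 (Pearson r = 0.88), then ANXA5 and S100A11 (r = 0.85) and S100A10 and S100A11 (r = 0.79). The most opposed were ANXA4 and ANXA5 (r = -0.77). Among 12566 genes tested in both arms, the 5 whose means followed ANXA2 most closely were PLA2G3 (r = 0.93), ZDHHC12 (r = 0.91), RTN4R (r = 0.90), TMEM97 (r = 0.90) and CARHSP1 (r = 0.90). For S100A10 they were TMEM97 (r = 0.92), ANLN (r = 0.92), CENPM (r = 0.91), FADS1 (r = 0.91) and CCNE1 (r = 0.91), so TMEM97 was on both lists. For S100A6 they were GTF2H5 (r = 0.88), AHDC1 (r = 0.88), NIT1 (r = 0.87), TCTN1 (r = 0.85) and OSGEP (r = 0.85). These values describe 16 groups that share lines, days and controls, and the highest of so many correlations is high by selection.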

How the data were processed

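Gene counts of 65 libraries were deposited as raw counts per gene by the authors: QuantSeq 3′ FWD libraries, per the labels, with single reads counted by featureCounts (Subread 1.6.2) on GRCh38 (hg38), per the submitters' processing notes. The aligner, strand setting and treatment of multimapping reads are not given in the sources used here. Of 58735 gene IDs, 58207 matched a current symbol and all were in GENCODE 29. Another 4 columns of the table match no listed sample and were not used. CPM was computed from the library totals, which span 831062 to 3574843 counts, and intervals cover the spread between libraries.

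Genes were tested with edgeR 4.0.16 in R 4.3.3: filterByExpr with a minimum count of 10, TMM factors, and the two-sided robust quasi-likelihood F-test fitted to all libraries of an arm together, each group having its own mean. This left 13797 genes in the genotype arm and 12748 in the enzyme arm, with Benjamini-Hochberg adjustment over all of them and a threshold of 0.05. DESeq2 1.42.0, RLE factors, no filter, fits on only the groups compared, replicate blocks and leaving out each library were the alternatives. The members, lists and tests were chosen with earlier results of these data known. All 9 members are named, and so are, from each list, up to 3 genes with the largest change in a described comparison or from day 2.5 to 4.5 in WT, and the 5 genes most like ANXA2, S100A10 and S100A6.

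In the enzyme arm a replicate number is a cell line, so numbers pair libraries: same-numbered libraries of a day deviated together (r over 0.1) in 15 of 21 pairs (lowest r -0.10). Steps between days are paired by line or replicate name, with 38 of 51 pairs over 0.1 in the genotype arm (lowest -0.16) and 12 of 21 in the enzyme arm (lowest -0.32). Each of 115 replicate pairs differed by more than sampling noise, with chi-square per degree of freedom from 2.07 to 71.8.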

Additional observations from a re-analysis of the deposited data

Results flagged for a closer look

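Of 54 groups of a member with 5 or more libraries, 7 held a library far from the others of its group, by its gap to the next library over the range. The cut-offs assume normal values, and some of these groups hold mostly 0 counts, so no chance rate is set beside this number. ANXA5 was at 217 CPM in KO library cl4_R1 at day 1.5, with the others between 52.2 and 110.1 CPM, and at 184 CPM in cl4_R1 at day 2.5, with the others between 70.0 and 112 CPM. ANXA4 was at 1.85 CPM in cl4_R1 at day 1.5, with a median of 0 in the others. S100A10 was at 196 CPM in WT library WT_R1 at day 2.5, with the others between 79.9 and 118 CPM. ANXA1 was at 15.6 CPM in WT library TNT2 at day 4.5, with the others between 1.44 and 5.21 CPM. ANXA3 was at 5.79 CPM in KO library cl51_R1 at day 4.5, with the others between 0 and 2.03 CPM, and at 0.522 CPM, a single count, in cl14_R1 at day 2.5, with 0 in the others.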

How the results depend on the processing

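Over 43 fold changes and 620 alternatives, 565 kept their direction and side of the threshold, 49 lost the call, 2 gained one and 4 changed sign. The ANXA2 level of the 16 groups moved by less than 1 SD with TMM effective library sizes, and the ratio of S100A10 to ANXA2 was unchanged with processed copies added, since these hold 0 counts. The ANXA2 calls kept in every alternative were those of KO at days 4.5 and 7.5, of HAse1.5 at day 4.5 and of the 3 steps from day 2.5 to 4.5. Those of KO and HAse1.5 against controls led to the choice of the family. The alternatives refit the same libraries, so keeping these calls is a description and no further support. The 4 sign changes were all in ANXA2 differences without a call. Leaving out 1 library at a time gave -0.13 to 0.0163 for KO against WT at day 1.5, -1.05 to 0.0472 for HAse2.5 against untreated at day 7.5, -0.15 to 0.72 between the schedules at day 4.5, and -0.10 to 0.41 for KO from day 4.5 to 7.5.

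Counts of called members moved by over 1.5 times as follows. With only the 2 groups compared in the fit, 2 were called in place of 4 for HAse1.5 at day 4.5, 1 in place of 3 at day 7.5, and 3 in place of 5 for KO from day 1.5 to 2.5. Without the filter, 2 in place of 0 were called for HAse2.5 at day 7.5, 1 in place of 0 between schedules at day 7.5 (ANXA2) and 1 in place of 0 for untreated from day 4.5 to 7.5. RLE factors gave 1 there, and DESeq2 1 there and 2 for HAse2.5 at day 7.5. Leaving out 1 library at a time gave 2 to 4 for HAse1.5 at day 4.5, 0 to 1 for HAse2.5 at day 4.5, 0 to 2 at day 7.5, 0 to 1 between schedules at day 4.5 and 0 to 3 for untreated from day 4.5 to 7.5. Causes were not tested.

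The replicate block by line gave 1 for HAse2.5 at day 7.5 and 1 for untreated from day 4.5 to 7.5. By replicate name the block gave 5 in place of 3 for WT from day 1.5 to 2.5, 1 in place of 0 for WT from day 4.5 to 7.5, and 1 in place of 0 for KO over that step. In the genotype comparisons the number in a replicate name is only shared (9 of 32 pairs over 0.1, lowest r -0.41), and blocking on it gave 2 in place of 0 for KO against WT at day 2.5, ANXA6 and S100A11. Counts of a few reads limit ANXA1, ANXA3 and ANXA4, and S100A10 in HAse1.5 and KO libraries at day 7.5.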
